A study of Danio rerio with 12 samples.

Results

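Vehicle-treated zebrafish larvae at day 6 after fertilization are described here as a baseline, which includes any effect of the vehicle. They are 4 of the 12 arrays of a study of LXR, the oxysterol-activated liver X receptor, and were chosen by their titles as DMSO replicates 1 to 4. Each DMSO array held total RNA from 1 pool of 30 whole wild-type larvae of the WIK strain, kept from day 4 to day 6 in embryo medium with 0.1% DMSO that was renewed after 24 h. The other groups were larvae of the same strain, ages and DMSO level given an LXR agonist, GW3965 (4 pools, 1 mM as labelled) or T0901317 (4 pools, 2 mM as labelled). They serve here only to ask whether pools that carry the same replicate number deviate alike and, for GW3965, whether variable genes vary there too. The authors left T0901317 replicate 2 out of their analysis, which leaves 3 T0901317 pools. The design text calls the pools biological quadruplicates and does not say whether pools of a number came from the same spawning. A pool averages its larvae, so spread between single larvae was not measured, and in whole-body RNA fewer cells of a type and less RNA per cell cannot be told apart.

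A zebrafish larva of this age has hatched, swims freely and begins to hunt by sight. Its lens and layered retina are in use, its gut, liver and exocrine pancreas handle food as the yolk runs out, and most of its body mass is fast axial muscle. Its gonads are still undifferentiated, and lymphocytes of the adaptive immune system are only starting to mature.

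Signal was read on 1-colour Agilent arrays as processed Cy3 intensity, and is given as log2 of that intensity minus the 75th percentile of its array, so that 0 is a probe as bright as that percentile. The percentile itself lay between 332 and 390 intensity units on the DMSO arrays. Of 43603 probes, 82.1% to 83.2% were flagged well above background on a DMSO array and no spot was saturated. A symbol could be given to 12858 genes, each represented by its brightest probe. Brightness depends on the probe as well as on the RNA, so the order of genes by signal is an order of probes and not of transcript numbers. The DMSO arrays correlated with each other at 0.993 to 0.996 across genes, which are not independent points. All 4 lay on 1 slide and each agonist group on a slide of its own, so treatment group and slide cannot be told apart. The replicate number of a pool equalled its position on the slide in every group, so pool and position cannot be told apart either.

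The defining markers of the tissues of a larva were checked against the label of a whole animal. Of 39 markers listed 36 were measured, and all 34 of them that mark the 19 somatic tissues were well above background on all 4 arrays. So were 91.3% of all named genes. Signals of these markers reached from the pancreatic elastase ela2, at a mean of 9.39, through muscle mylpfa (8.22, 8.10, 8.19 and 8.28 in pools 1 to 4), insulin (ins; 3.01, 2.90, 3.11 and 3.12) and the kidney cadherin cdh17 (2.08, 1.61, 1.89 and 1.74) down to the endothelial receptor kdrl (-3.37, -3.32, -3.93 and -3.28). The germ cell markers stood apart from the somatic ones. The RNA helicase ddx4, known as vasa, was well above background on some arrays only, and nanos3, which maintains germ cells, on none.

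The brightest 1.00% of named genes comprised 129 genes with mean signals of 7.63 to 9.79. The last inside was atp5mc3b, a subunit of ATP synthase, and the next outside was the muscle calcium pump atp2a1l at 7.63. The ribosomal protein list took 58 of these places out of 85 measured, lens genes 16 of 63, fast skeletal muscle 15 of 50 and exocrine pancreas 8 of 28. The ribosomal list also held the kinase gene rps6kb1b and left out rpsa. Epidermis held 5, translation factors 3, and liver and slow muscle 2 each, while photoreceptors and oxidative phosphorylation held 1 each. A larva at this stage was thus read, at the top of the scale, through protein synthesis, lens, muscle, digestive enzymes and skin.

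At the head of the order stood gamma M crystallins, the densely packed proteins of the fish lens, which filled 7 of the first 30 places. The brightest was crygm2d3, with 9.88, 9.81, 9.76 and 9.72 in pools 1 to 4, and crygm2d10 gave 9.56, 9.49, 9.52 and 9.50. These genes lie in a large family of close copies, and a probe may collect RNA of more than its named copy. Among the other lens genes the chaperone alpha A crystallin cryaa gave 2.65, 2.54, 2.32 and 2.75, and the fibre water channel mipb gave 4.01, 3.82, 3.81 and 3.92.

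Of the first 30 genes, 9 encode proteins on the ribosomal list and 3 translation factors. The small subunit protein rps2 gave 9.69, 9.52, 9.42 and 9.65, and the elongation factor eef1a1l1 gave 9.47, 9.29, 9.30 and 9.40. A further 4 of the 30 were on no list, among them rpsa, which encodes a protein of the small ribosomal subunit, and rack1, a scaffold protein of the ribosome. The nucleoside diphosphate kinase nme2b.2 and the mitochondrial ADP/ATP carrier slc25a5 were the others.

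Muscle and pancreas followed closely. Fast troponin T tnnt3b, which ties the calcium switch to the thin filament, gave 9.62, 9.41, 9.40 and 9.28, and the fast myosin heavy chain myhz1.1 gave 9.45, 9.23, 9.29 and 9.24. Elastase ela2 gave 9.54, 9.38, 9.26 and 9.41, trypsin prss1 gave 9.56, 9.18, 9.17 and 9.20, and chymotrypsin ctrb.1 gave 9.15, 8.87, 8.72 and 8.98. Pool 1 was the highest of the 4 for each of these 5 genes. It was also the highest for 115 of the 129 brightest genes, against 32.9% of all genes with a measured spread. Bright genes as a whole deviated upward in pool 1, by a median of 0.06 in the brightest eighth, so this count is not particular to muscle and pancreas.

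**Figure D1:**
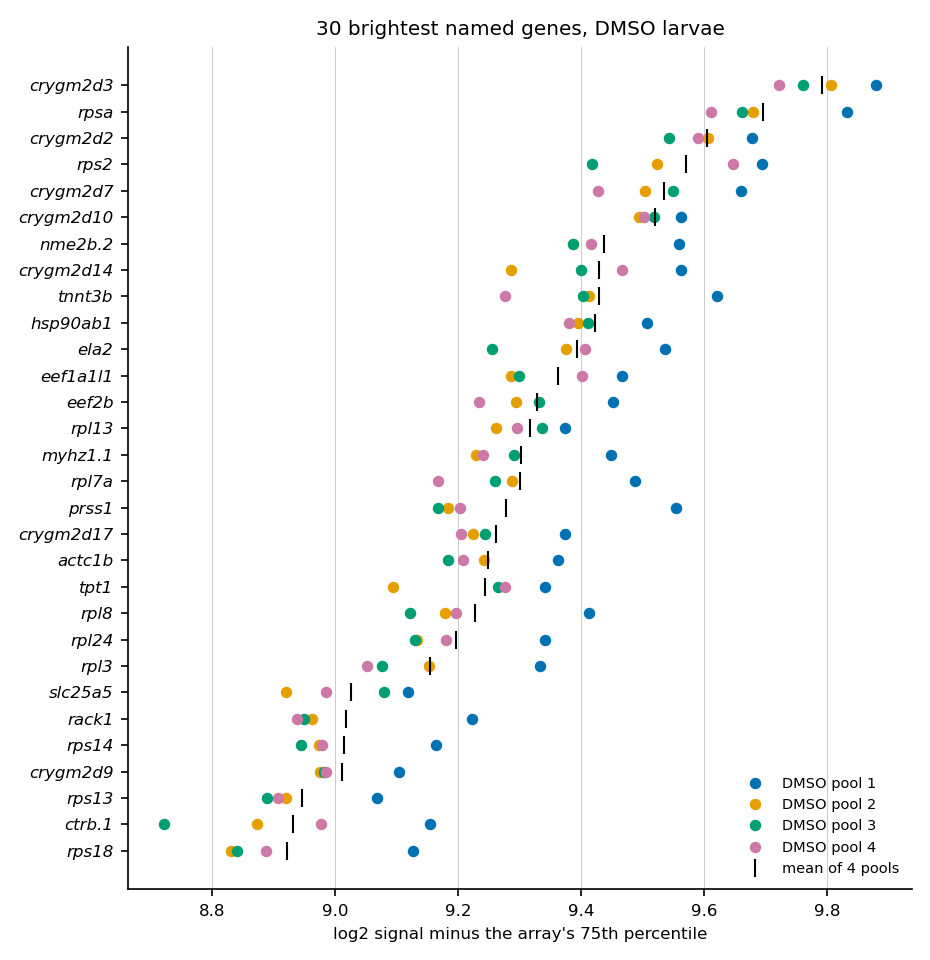
Log2 signal minus the array's 75th percentile (x axis) for the 30 brightest named genes (y axis, brightest on top) in each of the 4 DMSO pools (coloured points), with the mean as a black bar. Most of the blue points of pool 1 lie to the right of the other 3 pools, and the genes run from crygm2d3 at 9.79 to rps18 at 8.92.

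Liver, gut and skin had genes high in the order as well. Retinol binding protein rbp4, which carries vitamin A from the liver, gave 8.47, 8.25, 8.17 and 8.42, and the liver fatty acid binding protein fabp10a gave 7.90, 7.67, 7.61 and 7.75. In the intestine fabp2, the fatty acid binding protein of enterocytes, gave 7.18, 6.83, 7.02 and 7.03, and the acidic chitinase chia.2 gave 7.01, 6.69, 6.87 and 6.96. Skin was represented by the keratins krt92 (8.66, 8.45, 8.52 and 8.44) and krt5 (8.07, 7.97, 7.99 and 8.02). In the retina the rod opsin rho gave 7.20, 7.63, 7.77 and 7.67 and the cone phosphodiesterase subunit pde6ha 7.83, 8.0, 7.87 and 8.29. In these retinal genes pool 1 was the lowest, the reverse of its place in the digestive and skin genes.

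At the other end of the scale, 650 of 12858 named genes (5.06%) were not well above background on any DMSO array, 469 (3.65%) were on 1 to 3 arrays and 11739 (91.3%) on all 4. For probes, the share on no array was 13.8%. For the genes on no array the signal is only a bound, and a flag of this kind does not show that a gene is silent in every cell, since a few cells in a whole larva may fall below what the array detects.

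Chemosensory receptors formed the largest group below that limit, with 98 of 144 measured genes (68.1%) on no array. Among odorant receptors, which olfactory neurons express singly, 60 of 92 were on no array, and among trace amine receptors 20 of 22. Of the C family of olfactory receptors 14 of 18 were on no array. The brightest of the receptors detected was or70a2 with -0.29, -0.01, -0.02 and -0.28, which is not dim on the scale used here. By contrast or30bt1 gave -7.25, -7.44, -7.34 and -7.54, none of them above background.

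Genes of the reproductive system came next. Of 47 germ cell and gonad genes 17 (36.2%) were on no array. They included dnd1, which protects germ cell RNAs, the oocyte growth factor bmp15, and the egg coat genes zp2.1, zp2.5 and zpcx. Of 24 zona pellucida genes, which encode the egg coat, 9 were on no array and 11 on all 4. Detected on all arrays were the tudor protein tdrd1 (0.26, 0.02, 0.03 and 0.04) and piwil1 (-1.63, -1.50, -1.89 and -1.72), which act with small RNAs against transposons in germ cells, and star (-0.19, -0.34, -0.60 and -0.37), which brings cholesterol into mitochondria for steroid synthesis. All 5 measured vitellogenins, the yolk precursors made by the adult female liver, were well above background on all 4 arrays. Their signals were low, from vtg5 at -2.77, -3.26, -2.84 and -2.44 to vtg4 at -4.31, -5.04, -4.51 and -4.09.

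Of the pituitary and hypothalamic hormone genes 6 of 33 were on no array, against 5.06% of all named genes. They were fshb and lhb, the beta subunits of the gonadotropins, their shared alpha subunit cga, the reproductive neuropeptide kiss1, ghrh, and pomcb. Growth hormone gh1 gave 1.43, 1.34, 0.93 and 1.31, and the melanin-concentrating hormone gene pmchl gave 1.89, 1.92, 1.45 and 2.24. Thus gonadotropin subunits were below the limit on the same arrays that read growth hormone.

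Genes of the first day of life gave a mixed picture: 14 of 56 early embryo genes were on no array. They included the pluripotency factor nanog, the organizer gene dharma, the endoderm factor sox17, and the segmentation clock genes her1, her7 and mespaa. Others on that list were measured on all 4 arrays, as gsc with 1.72, 1.54, 1.56 and 1.6 and gata5 with 1.52, 1.27, 1.49 and 1.47. None of the 46 hox genes, which set position along the body axis, was on no array, against 5.06% of all named genes. On all 4 arrays were 44 of the 46, against 91.3% of all named genes. The brightest hox gene was hoxb3a, with 1.90, 1.94, 1.89 and 2.02.

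Lymphocyte genes were partly below the limit. Of 22 adaptive immunity genes 4 (18.2%) were on no array, against 5.06% of all named genes. They were the T cell coreceptor cd8a, cd247l, the thymus epithelial factor foxn1 and nitr1a. Of 17 nitr genes, which encode receptors of the innate immune system of fish, 14 were on no array and none was on all 4. The T cell kinase lck was on all 4 arrays with -2.90, -3.74, -3.23 and -3.07, and il7r, a receptor of developing lymphocytes, gave 1.74, 2.28, 1.93 and 1.95. Among innate cells 32 of 36 macrophage and neutrophil genes were on all 4 arrays, near the 91.3% of all named genes. Of 47 proteasome genes 4 (8.51%) were on no array, against 5.06% of all named genes. They were not the common subunits: psmb8a and psmb9a belong to the immune form of the particle and psmb11a to its thymus form, and psmb13a was the other. The adult beta globin hbba1 was likewise on no array, the only 1 of 28 red blood cell genes, a share near that of all named genes. The alpha globin hbaa2 was on all 4 arrays with -5.23, -5.67, -4.59 and -5.17, and the embryonic globin hbae1.1 gave 4.78, 4.57, 5.22 and 4.35.

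**Figure D2:**
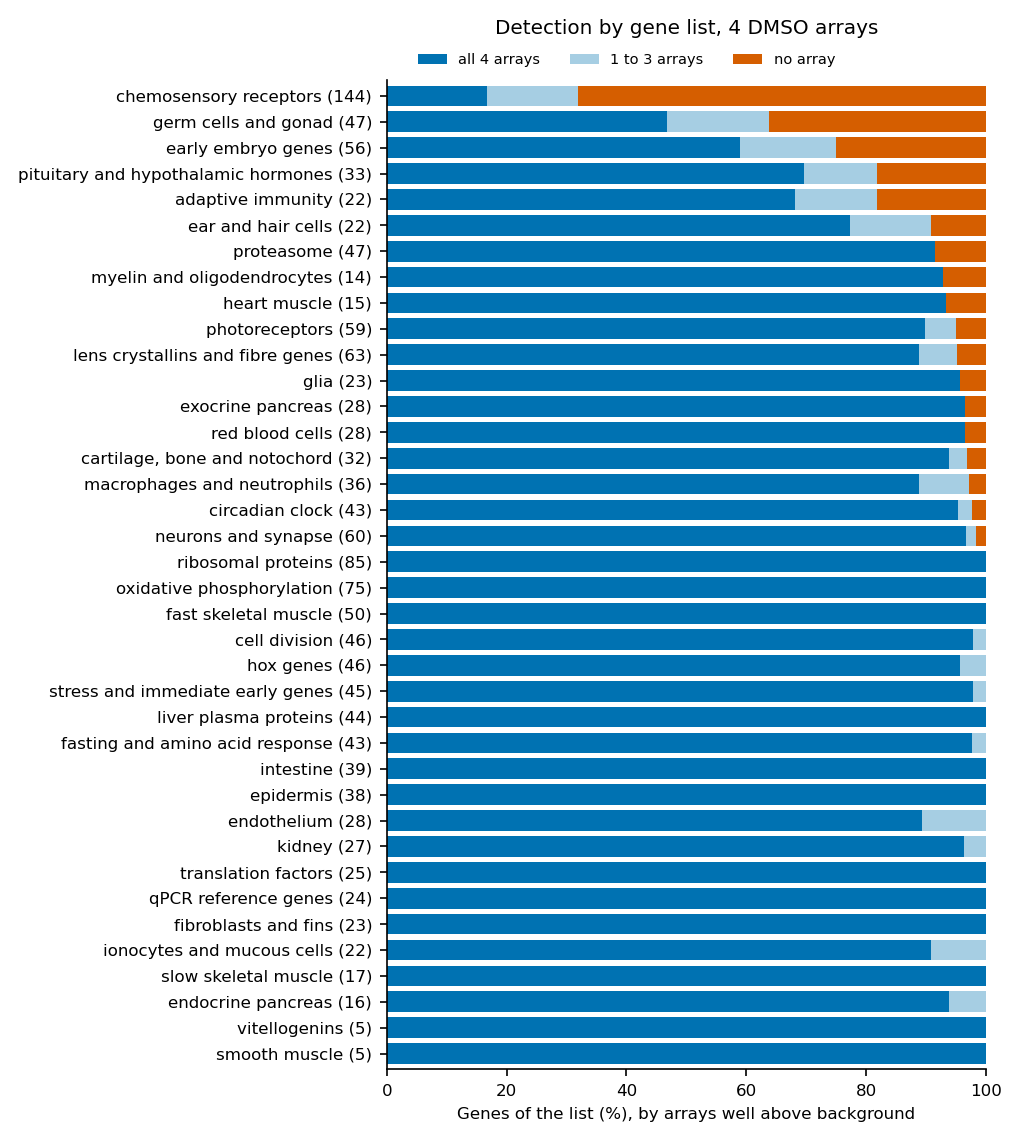
Share of the measured genes of each list (x axis, %; number of genes in brackets) that were well above background on all 4, on 1 to 3 or on no DMSO array. Orange bars mark genes on no array and are longest for chemosensory receptors (68.1%), germ cells and gonad (36.2%) and early embryo genes (14 of 56), against 5.06% of all named genes.

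The zebrafish descends from a teleost ancestor whose genome was duplicated, and many genes persist as pairs named a and b. Matching by symbol alone, a shared stem ending in a and b, gave 1318 pairs among the measured genes. Whether each pair stems from that duplication, or is a pair of paralogues at all, was not tested. Both members were on all 4 arrays in 1183 pairs (89.8%), 1 member was on all 4 and the other on none in 60 (4.55%), and both were on none in 3. Of the 2636 members 71 (2.69%) were on no array, against 5.06% of all named genes. Levels of the members were not compared, since each has its own probe.

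Pairs split between detected and not detected included genes known from several tissues, which are named here from annotation, since only whole larvae were read. For the member on no array a weak probe cannot be told apart from absent RNA. With the flag for a signal positive and significant against background 10 pairs were split, against 60. In the pituitary pomca, the precursor of corticotropin and melanotropin, gave 0.00, 0.00, 0.20 and 0.13, while pomcb lay at -7.66, -6.24, -6.27 and -5.77, never above background. In serotonergic and other neurons slc6a4b, a serotonin transporter, was on no array, and its partner slc6a4a, named after its values were seen, gave a mean of -0.20. In the retina the retinol dehydrogenase rdh8a gave 1.73, 2.38, 2.16 and 2.76 and rdh8b was on no array, and the synaptic protein cplx4a gave 0.88, 1.02, 1.04 and 1.24 with cplx4b on no array. The hindbrain and midbrain factor en1b gave 0.48, 0.72, 0.79 and 0.83 with en1a on no array. The connective tissue factor prrx1a (1.19, 1.18, 1.12 and 1.08) had a partner prrx1b on no array, and the mitochondrial lipid carrier prelid1a (3.05, 2.99, 3.02 and 3.13) a partner prelid1b on no array.

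Bright pairs with both members on all arrays included sarcomere genes. The cardiac-type actins gave 8.27, 8.18, 8.26 and 7.98 for actc1a and 9.36, 9.24, 9.18 and 9.21 for actc1b, and the fast myosin light chains 8.22, 8.10, 8.19 and 8.28 for mylpfa and 8.49, 7.97, 8.23 and 8.05 for mylpfb. Of 1178 pairs with a measured spread 420 (35.7%) had their highest pool in common. Another probe of the same gene was highest in the same pool in 48.2% of 6614 genes. Pools 1 to 4 were the highest in 32.9%, 15.8%, 22.7% and 28.6% of all genes, and whether pair members follow each other was not tested. In 8 pairs both members were among the most variable genes defined next, while in 98 pairs 1 member was. The 8 pairs were named after their values were seen. In gadd45aa and gadd45ab, which respond to growth arrest and DNA damage, pool 1 was highest (0.16 and 2.1) and pool 3 lowest (-0.76 and 0.97). In prc1a and prc1b, which bundle the microtubules of the dividing cell, pool 3 was the highest (0.21 and -2.56).

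The spread between the 4 pools was small for most genes. Over 11726 genes measured on all 4 arrays the median SD was 0.145 on the log2 scale, which is 1.11-fold, with quartiles of 0.098 and 0.211. An SD over 0.5 was reached by 145 genes (1.24%) and an SD over 1 by 14, and in 20 genes the highest pool exceeded the lowest by over 4-fold. Dim genes varied more: the median SD was 0.231 in the dimmest eighth of genes and 0.121 to 0.170 in the others. The array's own repeats give a scale for these values. For 29 probes spotted 5 times the median SD was 0.112 between single spots of 1 array. Between pools it was 0.147, taken on the average of the spots of each array. Averaging lowers spot noise, so these values cannot be set against each other to give the share of spot noise in the spread between pools. For 7 spike-in probes, whose RNA was added and is not from the larvae, the median SD between pools was 0.217 after scaling, 0.152 before it and 0.025 once each array was centred on their mean.

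The steadiest genes lay at many levels. The deubiquitinase bap1 gave 0.09 in all 4 pools, the tethering complex gene trappc4 gave 1.02, 1.01, 1.02 and 1.03, and the glyoxylate reductase grhprb gave 4.85, 4.84, 4.85 and 4.85. These genes were chosen for their small SD, and other probes did not repeat it: the SD was 0.143 on the other probe of bap1 and 0.164 on that of grhprb, while trappc4 had no other probe. Genes commonly used as standards in quantitative PCR had a median SD of 0.113 over 24 genes, against 0.131 in the brightest eighth of all genes. Among the most variable were 0 of these 24, against 5.01% of all genes, which says little for a list of this size. Within this list gapdh gave 8.61, 8.49, 8.50 and 8.57, whereas hprt1 gave -2.0, -1.56, -1.94 and -2.28. Other lists had the same order of steadiness. The median SD was 0.103 over 13 myelin genes, 0.098 over 25 translation factors and 0.107 over 43 proteasome genes.

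To find genes with more spread than others of like signal, the SD of each gene was divided by the running median SD of the genes nearest in signal. The top 5% comprised 587 genes (5.01%), with ratios of at least 2.24, the next gene outside also rounding to 2.24. These genes were chosen for their spread, so their SDs are a description. Another probe of the same gene gave a second reading of the same RNA for 323 of them, and in 214 (66.3%) it was highest in the same pool, against 3186 of 6614 (48.2%) of all genes with another probe. The GW3965 pools were other larvae, given an agonist and read with the same probes on another slide. Of 576 of these genes measured there 179 (31.1%) were in the top 5% of those pools too, against 5.00% of all genes. Noise of the same probe and the shared slide positions were not separated there from spread between larvae.

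**Figure D3:**
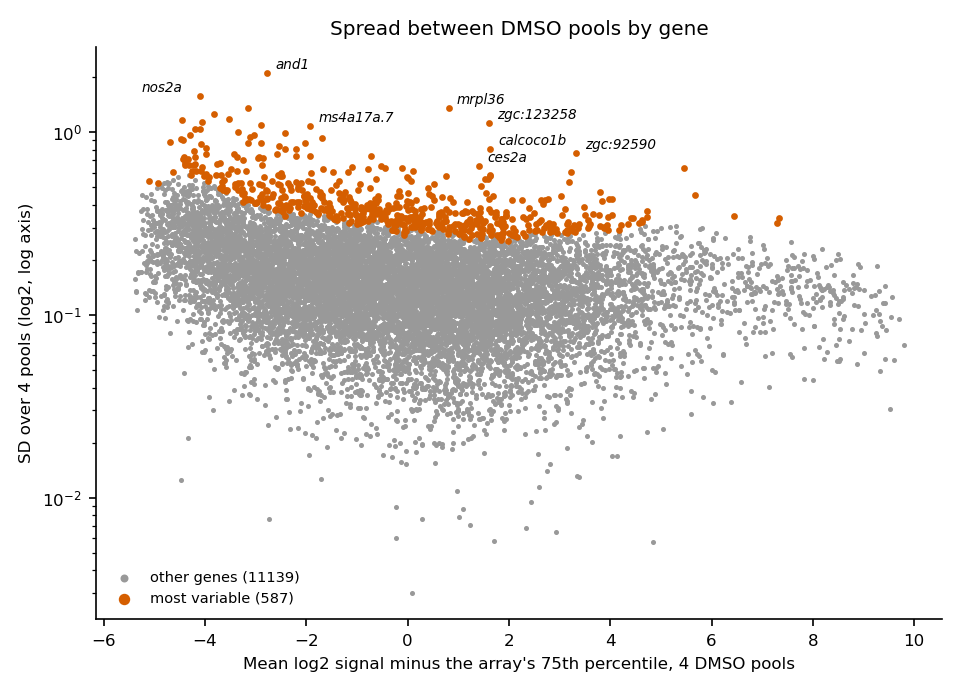
SD over the 4 DMSO pools (y axis, log2 units on a log axis) against the mean log2 signal minus the 75th percentile (x axis) for 11726 genes. Orange points are the 587 genes with the most spread for their signal. The gene and1 stands highest at an SD of 2.1, and the cloud of grey points narrows towards bright genes.

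The most variable gene was and1, an actinodin of the stiff fibrils of the fin fold, with -3.88, -4.00, -3.62 and 0.36, so that pool 4 stood alone. The mitochondrial ribosomal protein mrpl36 gave -0.79, 1.26, 0.36 and 2.39, and the odorant receptor or64b3 gave -4.43, -3.61, -5.08 and -2.18. In each of these genes pool 4 was the highest. Pool 2 stood alone in nos2a, the inducible nitric oxide synthase (-4.71, -1.76, -4.93 and -5.0), and in the transcription factor sox12 (-3.56, -1.61, -3.52 and -3.49). Pool 1 stood alone in ms4a17a.7, a membrane protein gene (-0.32, -2.47, -2.42 and -2.52).

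Pool 3 was the low one in other genes of the 20 with the most spread. The autophagy-related gene calcoco1b gave 2.00, 1.74, 0.47 and 2.32, and zgc:92590, on the exocrine pancreas list, gave 3.88, 3.45, 2.21 and 3.79. The hatching enzyme he1.2 was instead highest in pool 3 (-3.12, -3.46, -1.81 and -4.03), and its other probe deviated by -0.16, -0.67, 1.28 and -0.45. Other probes did not always follow. For zgc:123258 the values were 0.71, 2.45, 0.56 and 2.68, while its other probe deviated by 0.20, -0.03, 0.02 and -0.18, and for dipk2aa, at 0.36, -1.31, -1.0 and -0.92, the other probe stayed within 0.11 of its mean. Of the 20 genes, and1, mrpl36, nos2a, calcoco1b and most others had no other probe measured on all 4 arrays.

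Whole gene lists differed between pools in their median as well, and of the 38 lists cell division did so by the widest margin after the 5 vitellogenins (0.18, -0.42, -0.02 and 0.29 in pools 1 to 4). Of 45 genes of DNA replication and mitosis 43 were highest in pool 3, where 22.7% of all genes were. Their median deviation from the mean of the 4 pools was 0.46 in pool 3, which is 1.38-fold, against -0.13, -0.11 and -0.23 in pools 1, 2 and 4. Other probes, available for 30 of the genes, were highest in pool 3 in 24, with a median deviation of 0.42, and 27.4% of all genes with another probe were. Among the most variable genes were 21 of the 45, against 5.01% of all genes.

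The replication clamp pcna gave 0.23, 0.24, 1.09 and 0.09, and the DNA methyltransferase dnmt1, which copies methylation after replication, gave 1.99, 2.11, 2.47 and 1.92. Of the MCM helicase, which opens DNA at origins, mcm2 gave 1.72, 1.73, 2.36 and 1.62 and mcm4 gave 1.18, 1.04, 1.82 and 1.04. The mitotic kinase cdk1 gave -1.26, -1.28, -0.50 and -1.42, and its partner ccna2 gave -0.35, -0.25, 0.39 and -0.47. Replication and mitosis genes thus had their high value in the same pool, and in each of these 6 genes pool 3 lay above the range of the other 3. The exceptions on the list were ccnd1, a cyclin that is induced by growth factors (3.07, 2.93, 2.91 and 2.71), and tubb4b, a tubulin of many cell types (5.57, 5.41, 5.54 and 5.74). The genes mcm2, mcm4, cdk1 and ccna2 were named after their values were seen.

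In the same pool 3, most genes of fasting and the response to amino acid shortage were low. Of 42 measured 27 were lowest in pool 3, where 27.9% of all genes were, with a median deviation of -0.18. The list was split, since 11 others were highest in pool 3, where 22.7% of all genes were. The insulin-like growth factor binding protein igfbp1b, which rises in fasting and hypoxia, gave 5.52, 5.77, 4.56 and 6.00. The muscle ubiquitin ligase fbxo32, known for muscle atrophy, gave 2.02, 1.80, 0.78 and 1.94, and sesn1 gave 5.49, 5.48, 4.99 and 5.59. In all 3 genes pool 3 lay below the other pools, while acadm of fatty acid oxidation gave 2.78, 2.79, 2.83 and 2.74.

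Stress and immediate early genes were lower in pool 3 too, and higher in pool 1. Of 44 measured 0 were highest in pool 3, against 22.7% of all genes, and 25 were highest in pool 1, against 32.9%, with median deviations of -0.12 and 0.11. On other probes, available for 26, 4 were highest in pool 3, and the median deviation there was -0.13. Among the most variable genes were 10 of the 44, against 5.01% of all genes. The acute phase gene saa gave -3.56, -4.31, -5.29 and -4.54, and irg1l, an infection-induced gene of skin and macrophages, gave -0.83, -1.54, -2.12 and -2.19. The feedback inhibitor of cytokine signalling socs3a gave 3.92, 3.27, 2.45 and 3.27, and gadd45ba gave 2.2, 1.66, 0.85 and 1.66, both named after their values were seen. The macrophage list held mfap4.4, with -1.15, -1.63, -2.89 and -2.07. Among the chaperones of the list hsp90ab1 gave 9.51, 9.39, 9.41 and 9.38 and hsp90aa1.2 gave 1.88, 1.91, 1.94 and 1.96.

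Genes of photoreceptors and of neurons and synapses set pool 1 apart. Of 53 photoreceptor genes 47 were lowest in pool 1, where 27.6% of all genes were, and their median deviation there was -0.32, which is 0.80-fold, against 0.09, 0.08 and 0.08 in pools 2 to 4. The other probes, for 35 genes, gave -0.33. Of 58 neuron and synapse genes 44 were lowest in pool 1, with a median of -0.22, and their other probes gave -0.25. Among glia 12 of 22 were lowest in pool 1, with a median of -0.12, and -0.08 on the other probes of 14 genes. Among endocrine pancreas genes, many of which neurons share, 8 of 15 were lowest there. Myelin genes had a median of only -0.03, with 5 of 13 lowest in pool 1.

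Individual genes showed the size of the gap. The visual cycle protein rlbp1a gave 0.59, 1.38, 1.32 and 1.26, and the cone opsin opn1sw1 gave 5.33, 5.95, 5.94 and 5.85, both named after their values were seen. Among synaptic genes the vesicle fusion protein snap25b gave 1.92, 2.66, 2.61 and 2.5, the vesicle protein syn1 gave -0.29, 0.28, 0.50 and 0.06, and the GABA transporter slc6a1b gave 4.44, 5.09, 4.99 and 4.89. The glial glutamate transporter slc1a2b gave 4.16, 4.84, 4.83 and 4.66. In all 6 genes pool 1 lay below the other 3, whereas the glia marker gfap was highest in pool 1 (2.70, 2.56, 2.62 and 2.54). The members of the photoreceptor list with the lowest SD were rpe65a, an isomerase of the retinal pigment epithelium, with 5.11, 5.01, 5.17 and 5.06, and the G protein subunit gnb1a with 4.88, 4.89, 4.92 and 4.83. The other probe of gnb1a gave 2.99, 3.22, 3.33 and 3.12 and was lowest in pool 1.

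Lists of gut, skin, muscle, lens and other genes ran the other way in pool 1. Intestine genes were highest there in 29 of 39, with a median deviation of 0.21. Epidermis genes were in 31 of 38 (0.17), fast muscle genes in 36 of 50 (0.18), exocrine pancreas genes in 21 of 27 (0.21), lens genes in 44 of 56 (0.16) and hox genes in 26 of 44 (0.15), where 32.9% of all genes were. The smallest of these lists was smooth muscle, with all 5 genes highest in pool 1 and a median of 0.20. For the intestinal fatty acid binding protein fabp1b.1 the values were 6.88, 6.08, 6.54 and 6.26, and for smooth muscle transgelin tagln 4.65, 4.28, 4.25 and 4.33. The exocrine gene ela3l gave 8.68, 8.44, 8.21 and 8.63. Exocrine pancreas genes were also lowest in pool 3 in 17 of 27 and lens genes in 38 of 56, where 27.9% of all genes were. Fast muscle genes were lowest in pool 4 in 28 of 50, where 22.3% of all genes were.

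Array 1 also had the lowest 75th percentile (332 units), and its brightest genes deviated upward as a whole: the median deviation in the brightest eighth of genes was 0.06 in pool 1 and -0.03 in pools 2 and 3. Values with this trend of signal removed are therefore given. Genes of the ribosomal protein list were highest in pool 1 in 74 of 85 with a median of 0.15, and this was 0.01 without the trend. Without it intestine kept 0.19 in pool 1, hox genes 0.14, epidermis 0.12, fast muscle 0.09, exocrine pancreas 0.08 and lens 0.08. Photoreceptors were at -0.36 in pool 1, neurons at -0.25 and cell division in pool 3 at 0.43. Exocrine pancreas and lens then deviated more in pool 3, at -0.13 and -0.10, and fast muscle more in pool 4, at -0.13.

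Smaller differences were seen in pools 2 to 4. Oxidative phosphorylation genes were lowest in pool 2 in 59 of 75, where 22.3% of all genes were, with a median of -0.14. Proteasome genes were highest in pool 4 in 31 of 43, where 28.6% of all genes were, with a median of 0.11, and psma1, a subunit of its core, gave 5.49, 5.38, 5.37 and 5.75. Pituitary and hypothalamic hormones were highest in pool 4 in 15 of 23 with a median of 0.18, but the other probes, for 5 genes only, gave 0.02. Red blood cell genes were highest in pool 3 in 13 of 27, where 22.7% of all genes were, among them hbae1.1 and the embryonic globin hbbe2 with 3.38, 3.15, 3.79 and 3.15. Of their other probes, for 15 genes, 6 were highest in pool 3 and 7 in pool 1, with medians of 0.14 and 0.10. Those pools were highest in 27.4% and 32.1% of all genes with another probe. Cartilage, bone and notochord genes were lowest in pool 4 in 17 of 30, where 22.3% of all genes were, and on the fibroblast list the matrix protein sparc gave 4.1, 4.0, 4.28 and 3.48. The clock gene per1a was highest in pool 1 with 3.17, 2.23, 2.37 and 2.78. The circadian list did not share this: 19 of 41 genes were lowest in pool 1, where 27.6% of all genes were. The median of the list there was -0.05, and 0.01 on the other probes of 19 genes.

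**Figure D4:**
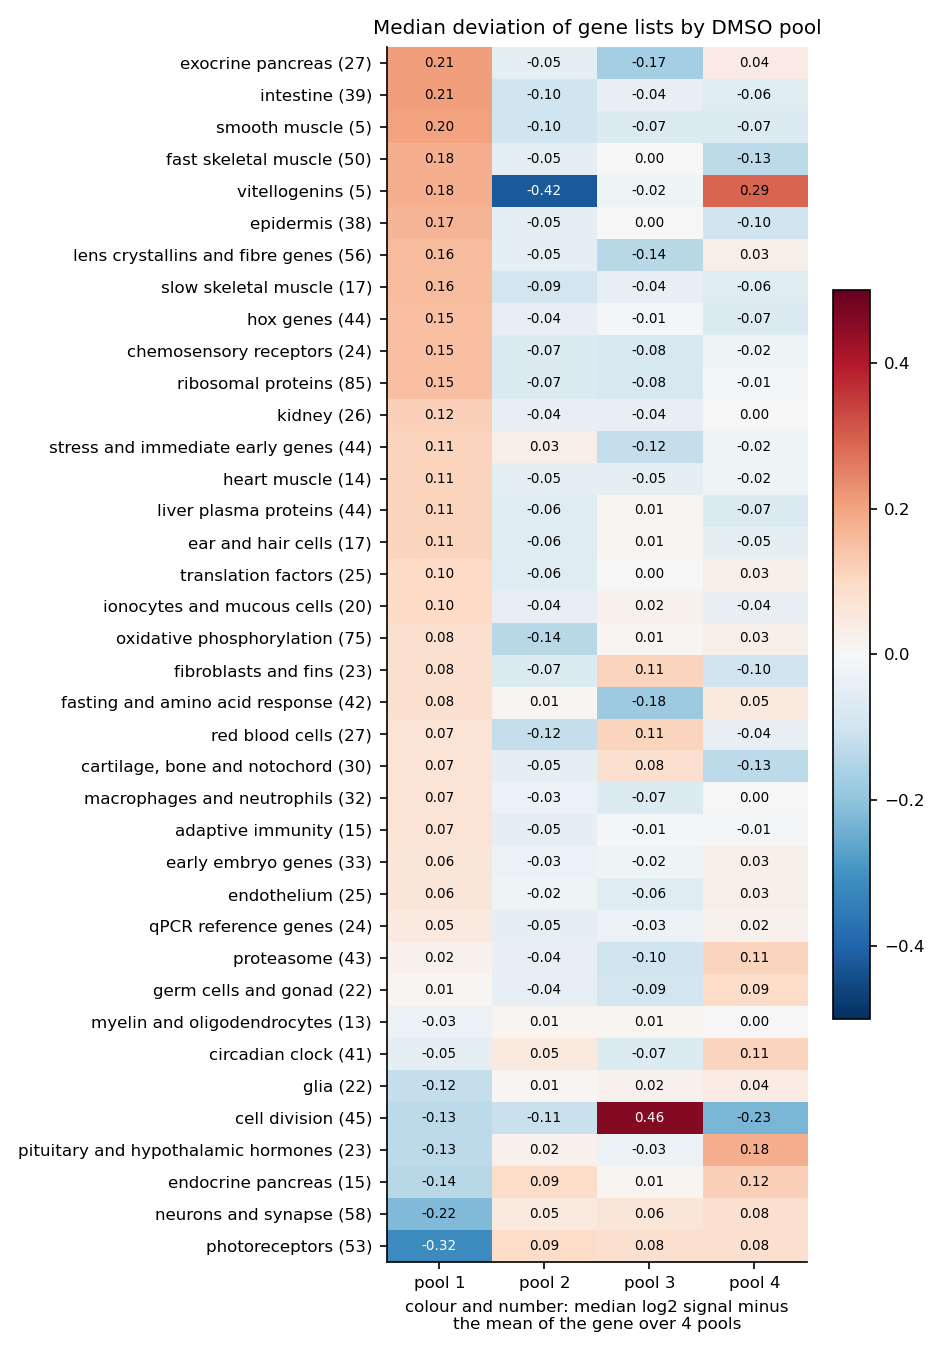
Median deviation of each gene list (rows, number of genes in brackets) in each DMSO pool (columns), as log2 signal minus the mean of the gene over the 4 pools, in red above and blue below that mean. Cell division in pool 3 (0.46), the 5 vitellogenins in pool 2 (-0.42) and photoreceptors in pool 1 (-0.32) stand out, and qPCR reference genes stay within 0.05.

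Whether pools with the same replicate number deviate together was tested with limma over 11 arrays, 4 DMSO, 4 GW3965 and 3 T0901317, with the treatment group in the model. Of 23554 genes and unnamed probes tested 115 (0.488%) were called at an adjusted p under 0.05, and 3547 had an unadjusted p under 0.05. Features entered with at least 3 arrays well above background, so one that passed only through the arrays where it was high had to differ. Of the 115, 82 were well above background on all 11 arrays and 13 on 3 only, and p values are given below for genes on all 11. Of the 48 named genes called 39 were on all 11, and 25 of these were among the most variable. Pool 4 was the most deviating DMSO pool in 29 of the 39. It was, on the same side, the most deviating pool of all 3 groups in 28, of which 20 were high in pool 4. Genes were called for deviating alike by number on these same arrays, so this agreement between groups describes the call and is no separate result. The share of all features with pool 4 as the most deviating was not computed. The test uses the DMSO values too, so it is not independent of the spread by which some of these genes were named.

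The gene cdk5r2b, which encodes an activator of the neuronal kinase CDK5, gave -7.38, -7.57, -7.39 and -3.91 in DMSO pools 1 to 4, against -7.55, -7.28, -7.35 and -4.12 in GW3965 pools 1 to 4 and -7.18, -7.31 and -2.79 in T0901317 pools 1, 3 and 4. It was well above background on 3 of the 11 arrays, so these values are a description. The gene or64b3 gave -2.18 in DMSO pool 4, -1.95 in GW3965 pool 4 and -1.66 in T0901317 pool 4, and at most -3.61 in the other 8 arrays (limma adjusted p = 0.00277). The fin fold gene and1 gave 0.36, 0.61 and 1.49 in pools 4 of DMSO, GW3965 and T0901317, and -6.06 to -3.62 in the other arrays, with 7 of the 11 arrays well above background. In these genes the array numbered 4 stood alone in all 3 groups.

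Smaller steps in the same arrays were seen in sst1.1, the hormone somatostatin, and in the carboxylesterase ces2a. DMSO larvae gave 0.47, 0.72, 0.70 and 1.47 for sst1.1, and GW3965 larvae 0.68, 0.82, 0.52 and 1.82, with T0901317 pools 1, 3 and 4 at 0.77, 0.62 and 2.01 (adjusted p = 0.0285). The ubiquitin ligase rnf126 was low in number 4, with 0.32, 0.02, 0.32 and -0.67 in DMSO pools (adjusted p = 0.0257). Number 2 was not always with the rest: zgc:152830 gave 1.47, 1.04, 1.55 and 0.86 in DMSO pools, with numbers 2 and 4 low also in GW3965 (adjusted p = 0.021). Called members of the lists further included the muscle actin acta1b, the activity-regulated factor npas4a, the macrophage factor irf8, the complement gene c1qb, the calcium channel trpv6 and sdhda of the respiratory chain, with adjusted p values of 0.0371 to 0.0458.

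**Figure D5:**
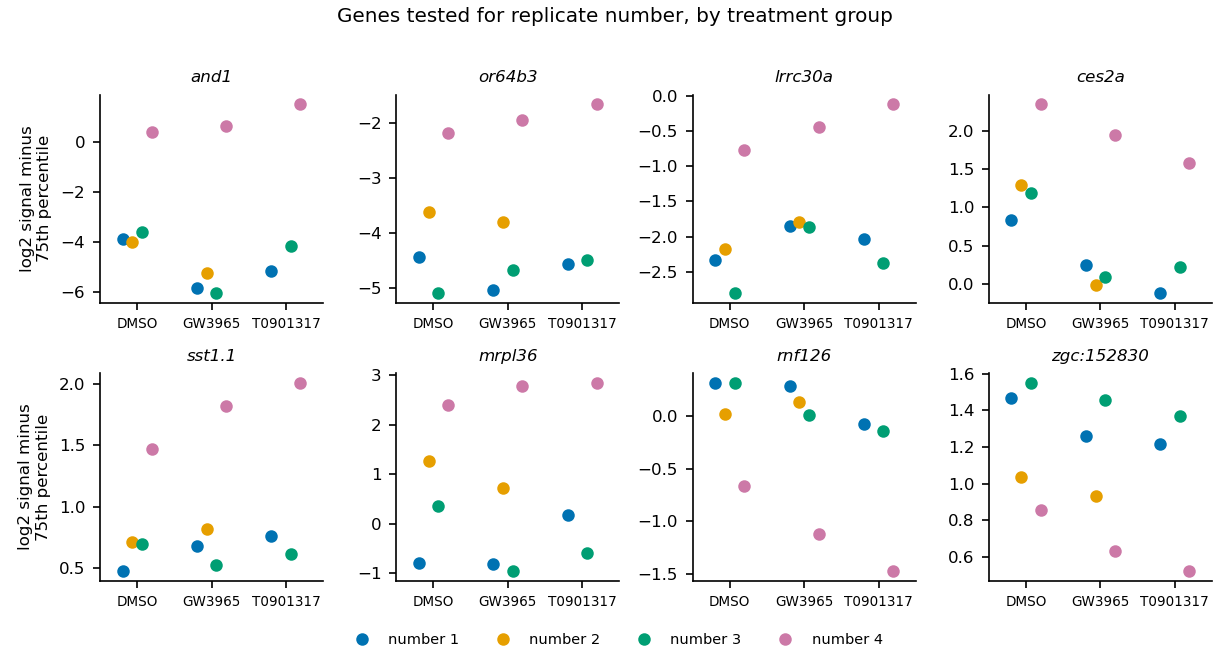
Log2 signal minus the 75th percentile (y axis) of 8 genes called for replicate number, in DMSO, GW3965 and T0901317 pools (x axis), coloured by replicate number. Number 4 (pink) is highest in all 3 groups in and1, or64b3, lrrc30a, ces2a, sst1.1 and mrpl36, and lowest in rnf126 and zgc:152830.

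No gene on the lists for cell division (46 tested), photoreceptors (53) or neurons (59) was called for replicate number. Of all features tested 0.488% were called, so 0 calls in lists of this size lie near that share and say little about them. Cell division genes had a median deviation of 0.46 in DMSO pool 3, against 0.04 in GW3965 pool 3 and 0.06 in T0901317 pool 3. The same list was lowest in number 4 in all 3 groups, at -0.23 in DMSO, -0.26 in GW3965 and -0.10 in T0901317. Photoreceptor genes had -0.32 in DMSO pool 1, against -0.10 in GW3965 pool 1, the lowest of that group as well, and 0.02 in T0901317 pool 1. In the T0901317 group they were lowest in pool 3, at -0.21, and neuron and synapse genes had -0.21 there too. A low value of these lists was thus also seen in a pool of another number. Across genes, DMSO pools correlated in their deviations with same-numbered GW3965 pools at 0.031 to 0.470 and with same-numbered T0901317 pools at -0.020 to 0.554, number 4 being the highest in both. Pools of other numbers ranged from -0.384 to 0.220 and from -0.509 to 0.414, the last between DMSO pool 1 and T0901317 pool 3. What a shared number stands for is not given in the labels.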

How the data were processed

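Total RNA from pools of whole larvae was labelled with Cy3 and hybridised to 1-colour Agilent arrays, per the labels' protocols. Per the file headers, spots were read by the authors in Feature Extraction 11.0.1.1 of Agilent. The deposited processed signals are intensities on a linear scale, background-subtracted and detrended within each array, not scaled between arrays. The submitters' processing notes name the same tool and version. The series table held the same intensities (largest log2 difference 0). The design build in the headers is Zv8, and no positions are given.

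The deposited intensities were log2 transformed here and averaged over the unflagged spots of a probe. They were then reduced by the 75th percentile of each array over probes that are not controls. Of 43603 probes, 25069 took a symbol by RefSeq accession from a GRCz12tu gene table, which served for naming alone, and 18534 had no symbol. The brightest probe in DMSO stands for a gene, and in the limma test the brightest over the 11 arrays. A gene counts as on no array if no probe of it was well above background there. Spread was computed for genes on all 4 arrays. Replicate number was tested with limma 3.58.1 in R 4.3.3 (lmFit, eBayes, F-test over 3 coefficients beside treatment, 5 residual and 2.81 prior degrees of freedom) on features well above background on at least 3 of 11 arrays, with Benjamini-Hochberg adjustment, and the procedure was tested on simulated data. P values weigh shifts shared by pools of a number against the residual spread over the 11 arrays of 3 groups. They do not measure the spread between the DMSO pools.

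Named genes were the 30 brightest, per list the 4 brightest, up to 6 on no array and the 2 with the highest and 2 with the lowest SD, the 20 most and 10 least variable, pairs and the 15 with the smallest p, besides the defining tissue markers. A further pair that this rule names is not reported here. The rule does not name atp2a1l, gadd45aa, gadd45ab, prc1a, prc1b, slc6a4a, mcm2, mcm4, cdk1, ccna2, socs3a, gadd45ba, rlbp1a, opn1sw1, npas4a, irf8 and c1qb, which were chosen after their values were seen. The members, the 38 gene lists and the rules were chosen with earlier results of these data known. Alternatives were quantile and median scaling, normexp with an offset of 50, another detection flag, flagged spots kept, the mean over probes, other filters, sets of arrays and thresholds, and leaving out each DMSO array. Protein or probe sequences were not used here, and identity between pair members was not analysed here.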

Additional observations from a re-analysis of the deposited data

Results flagged for a closer look

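For 166 genes named in the text and all 38 lists, it was asked whether 1 of the 4 pools lay far outside the other 3, by Dixon's 95% value for 4 samples. Chance flags about 1 in 20 groups, and 6.54% of all 11726 genes with 4 measured values passed, so that single flags carry little weight. Many of the genes had been named for a large spread or after their values were seen, and the flags of those repeat that choice. In pool 1 the genes rack1 (9.22), prss1 (9.56), tdrd1 (0.26) and ms4a17a.7 (-0.32) stood above the other pools, and rlbp1a (0.59) and opn1sw1 (5.33) below them. In pool 2 nos2a (-1.76) and sox12 (-1.61) stood above the rest. In pool 3 pcna (1.09) and mcm2 (2.36) stood above and the endothelial receptor kdrl (-3.93) below, and in pool 4 and1 (0.36) and cdk5r2b (-3.91) stood above. A further 5 flagged genes were on no array, so their values are below the detection limit: her1 (-6.57), cd8a (-6.03) and foxn1 (-5.85) in pool 2, psmb13a (-6.53) in pool 3 and psmb8a (-6.89) in pool 4. Among lists, pool 1 stood apart in the median deviation of smooth muscle (0.20), photoreceptors (-0.32) and neurons and synapse (-0.22).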

How the results depend on the processing

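Of 197 alternative values for 21 results 0 reversed direction, and 175 moved by less than the spread between pools or, for counts, by at most 1.5 times. Among these 175, exocrine pancreas in pool 1 went from 0.21 to 0.11 after quantile normalization and 0.08 with the trend of signal removed, fast muscle from 0.18 to 0.10 and 0.09, pituitary hormones in pool 4 from 0.18 to 0.11 after normexp, the proteasome in pool 4 from 0.11 to 0.07 on other probes, and split pairs from 60 to 90 when 1 array was allowed for a gene on none. Genes on no array numbered 650 in the main setting, 110 with the flag for a signal positive and significant against background, and 6033 as probes; pairs split between all arrays and none fell to 10 with that flag, against 60. Counts among the brightest 5% were 27 lens, 30 fast muscle and 14 exocrine pancreas genes. The median SD was 0.112 after normexp, whose offset narrows the spread of dim genes by construction, and 0.118 to 0.151 without each DMSO array in turn, lowest without replicate 1. Cell division genes among the most variable were 0 to 27 without each array, 0 without replicate 3. Ribosomal proteins in pool 1 moved to 0.03 after quantile normalization and 0.01 with the trend of signal removed, and pituitary hormones in pool 4 to 0.02 on other probes, both added after seeing the data apart from the quantile setting.

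The count of features called for replicate number depended most on the setting: 115 in the main fit, 745 after normexp, 221 for features on all 11 arrays, 21 with no filter, 13 at an adjusted p under 0.01, 5 with T0901317 replicate 2 put back, 8 with DMSO and GW3965 only, and 32 to 61 without each DMSO array (32 without replicate 1, 61 without 2, 56 without 3, 48 without 4). The cause of these changes was not tested. No paired analysis was possible because no groups are compared here and the replicate number is itself the term tested. With 4 pools of 1 condition the arrays limit precision, a spread cannot be split into larvae, wells and array position, and signal near background gives only bounds.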

Other observations

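Organs of smaller mass were readable as well. In the heart the atrial and ventricular light chain myl7 gave 1.95, 1.54, 1.79 and 1.83 in pools 1 to 4 and the factor hand2 gave 0.21, 0.25, 0.32 and 0.21, while pln1, on the heart muscle list, was on no array. In the inner ear pvalb8 gave 5.78, 5.42, 5.44 and 5.70, and the otolith protein starmaker (stm) gave 1.88, 1.68, 1.70 and 1.59. Of 22 ear and hair cell genes 2 were on no array, near the 5.06% of all named genes for a list of this size. They were otofa, which acts in vesicle release of hair cells, and the hair cell factor pou4f3. The calcium-binding protein s100t gave 1.88, 1.84, 0.83 and 1.25 and was among the most variable genes.

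Genes of the kidney and of ion-transporting skin cells were detected in full or on some arrays. On all 4 arrays were 26 of 27 and 20 of 22, near the 91.3% of all named genes. The chloride channel clcnk gave 0.11, -0.59, -0.57 and -0.29, and the epithelial calcium channel trpv6 gave -0.86, -1.0, -0.69 and -1.42. In the liver list 23 of 44 genes were highest in pool 1, against 32.9% of all genes, but the thyroxine-binding globulin gene serpina7 (-2.42, -2.09, -1.40 and -2.41) and the cytochrome cyp2aa4 (-2.19, -2.05, -1.03 and -2.35) were highest in pool 3. Circadian genes were highest in pool 4 in 19 of 41, against 28.6% of all genes, with a median deviation of 0.11.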
